A study of Mus musculus with 8 samples.

Results

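Serpins are a superfamily of proteins with a shared fold. Inhibitory serpins offer a reactive loop as bait: the target protease cuts the loop and is then trapped in a covalent, dead complex. In the vessel wall serpins are known as the inhibitors of thrombin, complement proteases, neutrophil elastase and lysosomal cathepsins, while a few members, such as the collagen chaperone Hsp47 (*Serpinh1*), inhibit no protease. The genes described here are those whose symbol is Serpin followed by a clade letter from a to i and a number, 62 of the 21859 genes counted. The rule reads the symbol and no expression value. Clade A (secreted inhibitors and hormone carriers) holds 24 of them and clade B (mostly intracellular inhibitors) 27. Clade C (antithrombin), D (heparin cofactor II), G (C1 inhibitor) and H (Hsp47) hold 1 each, E 3, F 2 and I (the neuroserpins) 2.

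The question was which genes differ in the atherosclerosis-prone aorta. Whole aortas of 4 male *ApoE*-/- mice, a germline knockout in which every cell lacks apolipoprotein E, were compared with aortas of 4 male WT mice, with 1 library of stranded, ribodepleted total RNA per mouse. All 8 mice were on the C57BL/6 background, 40 weeks old and fed chow. The number of read pairs counted on genes was 23240995 to 23940156 in *ApoE*-/- mice and 18375898 to 21664598 in WT mice. Levels are given as TMM-scaled CPM, the share of a library that falls on a gene, and different serpins are ranked by level only as CPM per kb of exon. Sums over marker lists and shares of counts are not scaled for length. *Apoe* itself was at 14.7 to 36.3 CPM in *ApoE*-/- aortas and 536 to 857 CPM in WT aortas (log2 fold change -4.83, SE 0.37, adjusted p = 0.0141 by edgeR). One library stood apart: in *ApoE*-/- replicate 1 the 6 smooth muscle markers summed to 4678 CPM against 10389 to 19580 in the other 7 libraries, and the 5 sympathetic neuron markers to 3911 CPM against 50.9 to 714. Counts over all serpins and the fold changes of the serpins named beside this library are given with and without it. Pairs that were assigned to no single gene made up 64.4% to 67.7% of the deposited total in *ApoE*-/- libraries and 69.8% to 72.1% in WT libraries, with no overlap between genotypes, and the part of this difference in the results was not tested. In whole tissue, more cells of a type and more RNA per cell cannot be told apart.

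Of the 62 serpins, 27 had enough counts to be tested. They included 12 of clade A, 7 of clade B, *Serpinc1*, *Serpind1*, *Serpine2*, *Serpinf1*, *Serping1*, *Serpinh1* and *Serpini1*. The other 35 were under the filter on low counts, and 6 of these had no count in any library. In edgeR's quasi-likelihood test with Benjamini-Hochberg adjustment over 15077 genes, 1 serpin, *Serpina3n*, was called, and it was higher in *ApoE*-/- mice (0.464% of all tested genes were called, 0.371% as higher and 0.0929% as lower). At an unadjusted edgeR p under 0.05, 7 serpins were higher (7.19% of all genes) and 1 lower (4.17%). DESeq2, the tool named in the study's methods, called 4.81% of all genes. It called 5 serpins higher (3.12% of all genes) and 0 lower (1.69%). The genotypes did not overlap, with every *ApoE*-/- mouse above every WT mouse, for 6 serpins (5.41% of all genes), and 0 serpins showed the opposite (3.3%). Of the 27 log2 fold changes, 21 were above 0, against 58.0% over all tested genes, and their median was 0.22 against 0.05. These counts are over genes that passed the filter, which a serpin of low level can pass through the genotype where it is higher, and are given as a description.

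Of the 8 serpins with an unadjusted p under 0.05 or no overlap, 6 were *Serpina3* genes. The other tested *Serpina3* genes were *Serpina3c*, *Serpina3j* and *Serpina3k*. The *Serpina3* genes lie at one end of a cluster on chromosome 12 that holds 23 of the 24 clade A genes (GRCm38, 103614786 to 104414329). Rodents carry many copies of the gene that in humans encodes alpha-1-antichymotrypsin, an acute phase protein. The sequences upstream of 3 of these genes are shown because they share a motif, and that of *Serpina3c*, a tested member of the same cluster that overlapped between genotypes, is shown beside them. They are the 250 bases before the RefSeq start site (GRCm38.p6), 5′ to 3′. *Serpina3n* was taken from chr12:104406458-104406707 (plus strand), *Serpina3g* from chr12:104235897-104236146 (plus strand), *Serpina3i* from chr12:104262872-104263121 (plus strand) and *Serpina3c* from chr12:104153873-104154122 (minus strand). Capitals mark matches, searched on both strands, to an NF-kB motif of 10 letters, to the STAT motif TTCNNNGAA or, in *Serpina3c*, to the heat shock element GAANNTTC.
Serpina3n: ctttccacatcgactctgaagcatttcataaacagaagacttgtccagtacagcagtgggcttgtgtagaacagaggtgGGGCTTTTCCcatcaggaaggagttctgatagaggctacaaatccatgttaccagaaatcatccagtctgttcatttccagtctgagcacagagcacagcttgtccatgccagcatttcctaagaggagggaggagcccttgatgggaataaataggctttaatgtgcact
Serpina3g: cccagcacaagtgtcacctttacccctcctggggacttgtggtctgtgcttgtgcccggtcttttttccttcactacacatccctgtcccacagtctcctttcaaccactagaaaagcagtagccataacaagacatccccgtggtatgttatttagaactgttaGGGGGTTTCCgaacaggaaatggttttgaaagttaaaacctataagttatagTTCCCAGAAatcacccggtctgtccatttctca
Serpina3i: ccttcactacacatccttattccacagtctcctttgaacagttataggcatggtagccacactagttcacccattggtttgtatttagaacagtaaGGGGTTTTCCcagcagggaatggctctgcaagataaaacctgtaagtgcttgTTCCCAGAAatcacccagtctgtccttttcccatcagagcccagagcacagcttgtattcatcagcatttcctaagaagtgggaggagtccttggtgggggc
Serpina3c: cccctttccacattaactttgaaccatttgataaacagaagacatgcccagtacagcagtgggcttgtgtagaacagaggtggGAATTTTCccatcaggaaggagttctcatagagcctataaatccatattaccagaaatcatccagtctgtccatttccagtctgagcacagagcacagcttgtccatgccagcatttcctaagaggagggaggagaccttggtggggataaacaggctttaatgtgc

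The NF-kB motif began 171 bases before the start site of *Serpina3n*, 85 before that of *Serpina3g* and 154 before that of *Serpina3i*. These were 3 of the 22 tested serpins with a promoter sequence (250 bases before to 50 after the start), and 1.629% of all 32851 RefSeq promoters of this length held the motif. The 3 genes are related copies in one cluster, so their matches cannot be counted as independent. The upstream letters of *Serpina3k*, *Serpina3m*, *Serpinb1a* and *Serping1* were not analysed here. In *Serpina3g* and *Serpina3i* a STAT motif began 52 bases after the first base of the NF-kB motif. *Serpina3n* had TTACCAGAA 48 bases on, which differs from TTCCCAGAA of *Serpina3g* by C3A, counted from 1 at the 5′ end of the motif. *Serpina3f* kept a STAT match, TTCCTAGAA (C5T against *Serpina3g*), and had GGGGATTGCC (G5A and T8G) where *Serpina3g* has its NF-kB match. *Serpina3c*, which lies in the same cluster, held no match to the NF-kB or the STAT motif. Where *Serpina3n* has its NF-kB match GGGCTTTTCC, *Serpina3c* had GGAATTTTCC, which falls outside the motif by 1 letter, A in place of G. *Serpina3c* too had the letters TTACCAGAA, beginning 120 bases before its start site against 123 in *Serpina3n*. No match overlapped another in the 4 sequences shown. STAT motifs were found in 4 of the 22 serpins (*Serpina3f*, *Serpina3g*, *Serpina3i* and *Serpinb6a*) and in 8.298% of all promoters. The other motifs searched were TGANTCA (AP-1), in 3 of the 22 serpins and 7.808% of all promoters, and the heat shock element, in 2 and 7.86%. A match describes the letters only and no binding was measured.

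*Serpina3n* (ENSMUSG00000021091.8, chr12:104406729-104414329, plus strand) encodes a secreted inhibitor of granzyme B, cathepsin G and leukocyte elastase. Its level was 193, 186, 254 and 402 CPM in *ApoE*-/- mice 1 to 4 and 35.6, 46.8, 30.5 and 53.0 CPM in the WT mice 1 to 4. Even the lowest *ApoE*-/- mouse was thus well above the highest WT mouse. The means were 259 ± 99.9 and 41.5 ± 10.3 CPM (SD, n = 4 each), 6.24-fold apart, with a log2 fold change of 2.64 (SE 0.30, adjusted p = 0.0355 by edgeR and 1.388e-14 by DESeq2). In the 8 fits on 7 mice, the log2 fold change stayed between 2.35 and 2.78. DESeq2 called the gene in 8 of 8 of them, with adjusted p-values up to 2.68e-10. The edgeR adjusted p was 0.0064 without *ApoE*-/- replicate 1, 0.0403 without *ApoE*-/- replicate 2, 0.0738 without *ApoE*-/- replicate 3 and 0.0501 without *ApoE*-/- replicate 4. It was 0.124 to 0.145 without any of the 4 WT mice, so 6 of the 8 lost the call.

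In WT mice *Serpina3n* made up 1.66% to 3.44% of all serpin counts, and in *ApoE*-/- mice 7.14% to 14.2%. Per kb of exon it was the 7th most abundant serpin in WT mice, at 20.1 ± 4.98 CPM per kb (SD, n = 4). In *ApoE*-/- mice it was the 2nd, at 125 ± 48.4 CPM per kb, although *Serpinh1* at 113 ± 33.9 CPM per kb was within its spread. *Serping1* was first in both genotypes. Of the 50-base windows in the exons of *Serpina3n*, 6.9% occur in another gene too, against 15.5% for *Serpina3g*, 15.86% for *Serpina3i* and 19.07% for *Serpina3m*, so the counts of the latter 3 are less certain.

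*Serpina3g* (ENSMUSG00000041481.17, chr12:104236245-104241939) encodes an intracellular serpin that inhibits lysosomal cysteine cathepsins. It was at 4.63, 2.84, 5.75 and 7.25 CPM in the *ApoE*-/- mice and at 1.29, 2.29, 1.94 and 0.96 CPM in the WT mice. Genotypes did not overlap, with a log2 fold change of 1.66 (SE 0.37, adjusted p = 0.0993 by edgeR and 0.0023 by DESeq2). DESeq2 called it in 8 of 8 fits that left out 1 mouse. Its neighbour *Serpina3i* (ENSMUSG00000079014.4, chr12:104263122-104269372) was at 1.62, 0.79, 2.96 and 1.82 CPM in the *ApoE*-/- mice and 0.23, 0.28, 0.55 and 0.24 CPM in the WT mice, again without overlap. Its log2 fold change was 2.46 (SE 0.48, adjusted p = 0.066 by edgeR and 0.0011 by DESeq2), and edgeR called it without *ApoE*-/- replicate 1 (adjusted p = 0.0423). These are low levels, with 5 to 10 counts per WT library for *Serpina3i*.

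*Serpina3m* (ENSMUSG00000079012.11, chr12:104338486-104394257) had 3.29, 3.54, 2.70 and 15.6 CPM in the *ApoE*-/- mice and 0.32, 0.84, 0.28 and 2.01 CPM in the WT mice. Every *ApoE*-/- mouse was above every WT mouse, and replicate 4 was far above the other 3. That gave a log2 fold change of 2.85 (SE 0.84, adjusted p = 0.194 by edgeR and 0.0097 by DESeq2). Without *ApoE*-/- replicate 4 it was 1.87, and DESeq2's adjusted p was then 0.113, while without WT replicate 1 or WT replicate 3 it was 0.0614 or 0.0554. In GENCODE M21 its exons overlap those of *Serpina3k* on the same strand, so some pairs of either gene may have been set aside as ambiguous.

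*Serpina3f* (ENSMUSG00000066363.12, chr12:104214544-104221129) was at 1.30, 0.31, 1.66 and 1.17 CPM in the *ApoE*-/- mice and 0.23, 0.23, 0.28 and 0.48 CPM in the WT mice. Replicate 2 of the *ApoE*-/- mice lay within the WT range. On the log2 scale the fold change was 1.84 (SE 0.52, adjusted p = 0.178 by edgeR and 0.0735 by DESeq2), and DESeq2 called it only without that mouse (adjusted p = 0.0015). *Serpina3b* (ENSMUSG00000066364.2, chr12:104127996-104139545) was the 1 tested serpin with an unadjusted p under 0.05 and a lower mean in *ApoE*-/- mice. It was at 1.79, 0.66, 0.48 and 1.69 CPM in the *ApoE*-/- mice and 1.01, 3.32, 6.32 and 7.99 CPM in the WT mice, with WT replicate 1 inside the *ApoE*-/- range. The log2 fold change was -2.01 (SE 0.68, adjusted p = 0.273 by edgeR and 0.0525 by DESeq2). DESeq2 called it lower without *ApoE*-/- replicate 1 (adjusted p = 0.0126) or WT replicate 1 (adjusted p = 0.0026).

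**Figure D1:**
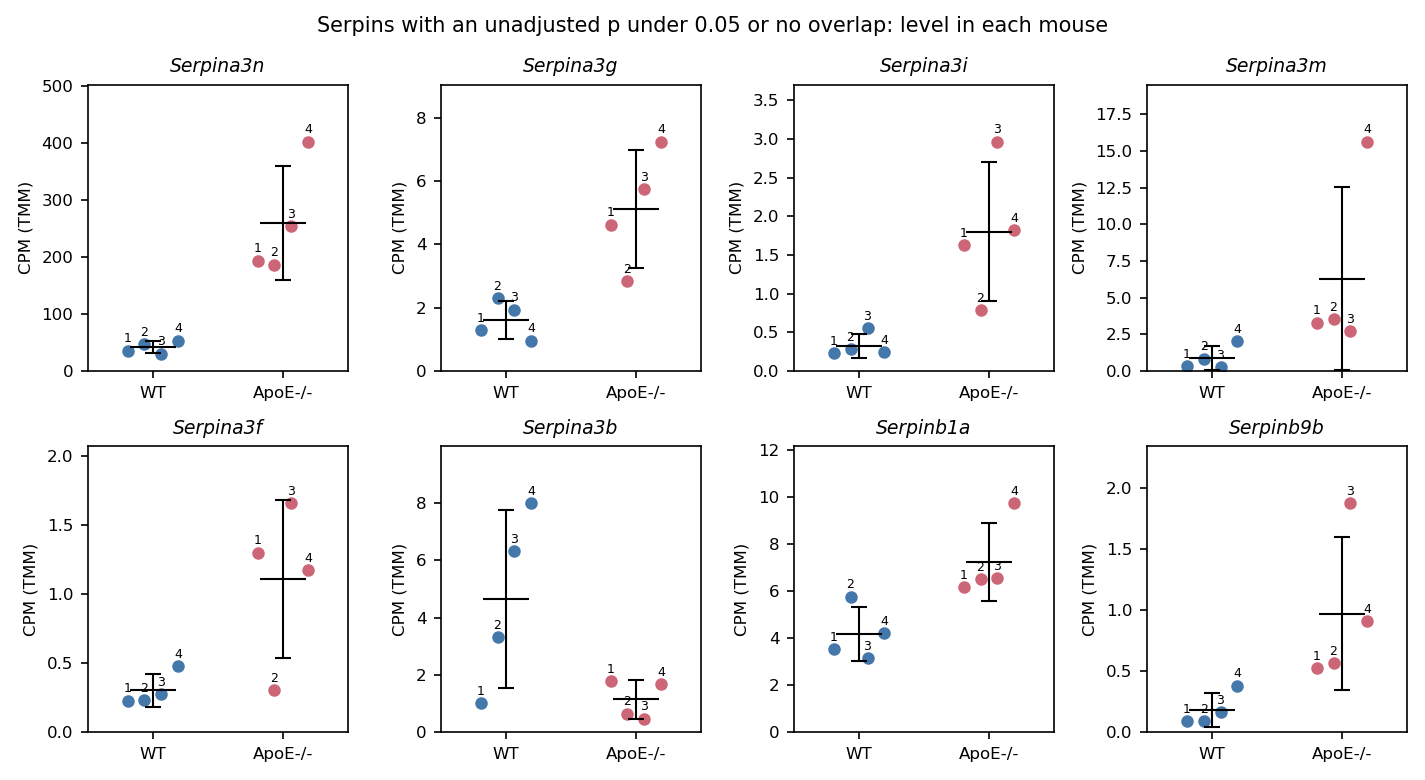
Level in CPM (TMM scaling) of 8 serpins in each of the 4 WT and 4 ApoE-/- mice, with points numbered by replicate, bars at the mean and whiskers of 1 SD. Serpina3n runs from 186 to 402 CPM in ApoE-/- mice and from 30.5 to 53.0 CPM in the WT mice, while Serpina3f and Serpina3b overlap between genotypes.

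The remaining tested members of the cluster did not pass either test. *Serpina3c*, per kb the 2nd most abundant of the *Serpina3* genes in WT mice, was at 6.58 to 34.9 CPM in *ApoE*-/- aortas and 13.4 to 24.2 CPM in WT aortas (log2 fold change -0.12, SE 0.48). Its highest *ApoE*-/- value came from replicate 4 and its lowest from replicate 3, and the white adipocyte list (4 genes) summed to 2459 CPM in the former and 672 CPM in the latter. The part of fat tissue in this order was not tested. *Serpina3k* was at 1.13 ± 0.75 and 1.48 ± 1.46 CPM (SD, n = 4 each) in *ApoE*-/- and WT mice. *Serpina3j* was at 0.50 ± 0.50 and 0.43 ± 0.24 CPM. *Serpina1b*, *Serpina1d* and *Serpina1e*, copies of the gene for alpha-1-antitrypsin, the main inhibitor of neutrophil elastase in plasma, had means of 0.73 to 1.79 CPM in both genotypes and log2 fold changes of 0.42 (SE 0.43), 0.06 (SE 0.53) and -0.47 (SE 0.29). Reads of these copies can be shared among them. Along the chromosome the 5 genes with a log2 fold change above 1 all lay in the last 200 kb of the cluster, between *Serpina3f* and *Serpina3n*, with *Serpina3j* and *Serpina3k* among them.

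**Figure D2:**
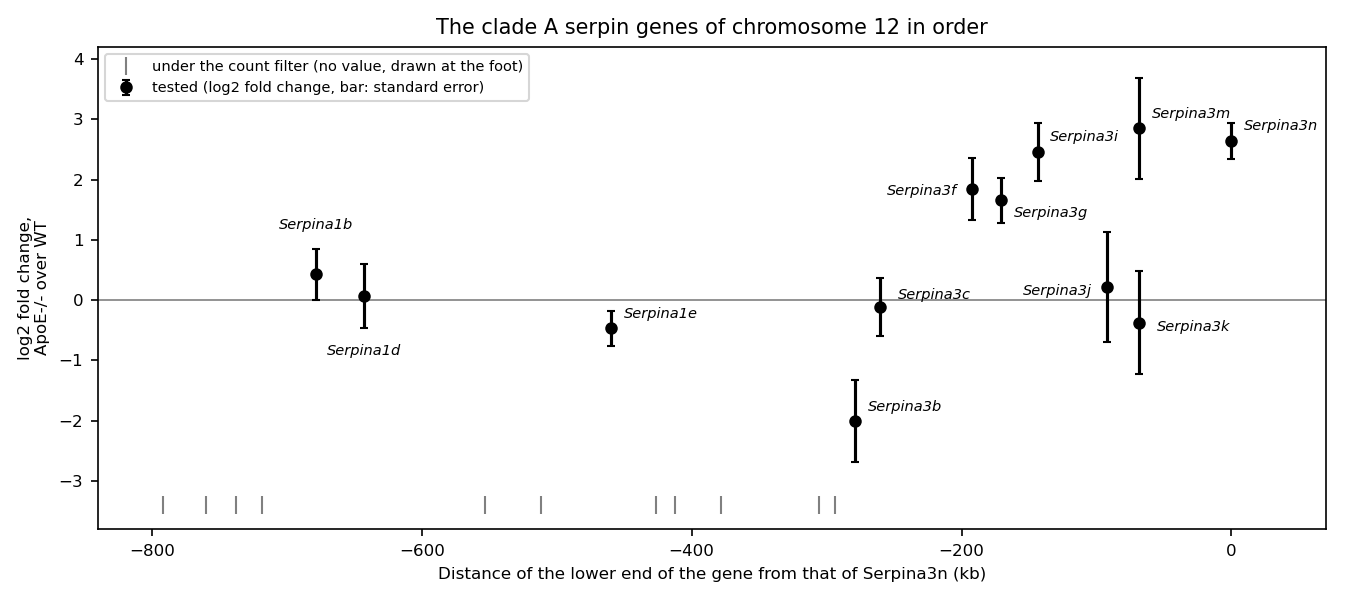
Log2 fold change (ApoE-/- over WT, edgeR, bars of 1 standard error) of the 12 tested clade A serpins against the distance in kb of the lower end of each gene from that of Serpina3n on chromosome 12; ticks at the foot mark the 11 members under the count filter. Serpina3f, Serpina3g, Serpina3i, Serpina3m and Serpina3n lie between 1.66 and 2.85, and Serpina3b lies at -2.01.

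Markers of other tissue were examined beside the low *Serpina* levels. The kidney tubule list (4 genes) was highest in WT replicate 3, at 24.8 CPM against 1.83 to 9.53 CPM in the other 7 libraries. That library also had the highest *Serpina3k* (3.55 CPM) and 24 of the 42 counts of the untested *Serpina1f*. The next highest *Serpina3k*, 2.03 CPM, was in *ApoE*-/- replicate 1, where the kidney list was at its lowest. *Serpina3b* was higher still in WT replicate 4. The part of kidney tissue in these values was not tested. The 6 hepatocyte genes summed to 431 to 2019 CPM in *ApoE*-/- aortas and 628 to 1382 CPM in WT aortas. Nearly all of that sum was *Cyp2e1*, at 426 to 2012 and 625 to 1378 CPM, and *Ahsg* was at 3.61 to 7.42 and 3.30 to 4.65 CPM. The other 4, *Alb*, *Ttr*, *Cyp3a11* and *Cps1*, were at or near 0, with at most 0.84 CPM of *Alb* in any library.

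Clade B serpins mostly stay inside the cell, where several inhibit proteases of granules or lysosomes. *Serpinb1a* (ENSMUSG00000044734.16, chr13:32842092-32851185, minus strand), a leukocyte inhibitor of neutrophil elastase, was at 6.17, 6.52, 6.53 and 9.72 CPM in the *ApoE*-/- mice and 3.53, 5.76, 3.16 and 4.21 CPM in the WT mice. The genotypes did not overlap, but the gap was narrow and neither tool called the gene (log2 fold change 0.80, SE 0.25, adjusted p = 0.219 by edgeR and 0.0749 by DESeq2). DESeq2 called it without *ApoE*-/- replicate 1 (adjusted p = 0.0352) or WT replicate 2 (adjusted p = 0.0127). *Serpinb9b* (ENSMUSG00000021403.3, chr13:33027416-33041884, plus strand), a relative of the granzyme B inhibitor *Serpinb9*, was at 0.53, 0.57, 1.87 and 0.91 CPM in the *ApoE*-/- mice and 0.09, 0.09, 0.17 and 0.38 CPM in the WT mice. These WT levels stand for 2, 2, 3 and 8 counts. The log2 fold change was 2.37 (SE 0.61, adjusted p = 0.136 by edgeR and 0.035 by DESeq2). DESeq2 lost the call without *ApoE*-/- replicate 3 (adjusted p = 0.236), *ApoE*-/- replicate 4 (adjusted p = 0.0818), WT replicate 1 (adjusted p = 0.171), WT replicate 2 (adjusted p = 0.159) or WT replicate 3 (adjusted p = 0.133).

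The 5 other tested clade B genes passed neither test over all 8 mice. *Serpinb6a*, an inhibitor of cathepsin G and per kb the most abundant of the clade, was at 146 to 191 CPM in *ApoE*-/- aortas and 123 to 158 CPM in WT aortas (log2 fold change 0.31, SE 0.14, adjusted p = 0.454 by edgeR). *Serpinb9*, the inhibitor that shields cytotoxic cells from their own granzyme B, was at 55.9 ± 9.27 CPM in the *ApoE*-/- and 55.8 ± 12.6 CPM in the WT mice (SD, n = 4 each), with a log2 fold change of 0.0017 (SE 0.18). *Serpinb6b* was at 17.5 to 58.9 CPM in the *ApoE*-/- and 30.7 to 44.5 CPM in the WT mice. *Serpinb6c* was at 1.23 ± 0.53 and 1.17 ± 0.13 CPM. *Serpinb8*, an inhibitor of furin, was at 18.1 ± 7.05 and 15.1 ± 0.72 CPM. *Serpinb6b*, *Serpinb6c* and *Serpinb8* were all lowest in *ApoE*-/- replicate 1 among the 8 mice. The log2 fold changes of *Serpinb6b* and *Serpinb6c* were 0.12 and 0.07 over all mice and 0.38 and 0.31 without it, with no call by either tool. Without that mouse the *Serpinb8* levels no longer overlapped (18.7 to 25.3 CPM against 14.6 to 16.2 CPM) and DESeq2 called it (adjusted p = 0.0202), while edgeR did not (adjusted p = 0.0733).

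*Serpine2* (ENSMUSG00000026249.10, chr1:79794197-79861180, minus strand), protease nexin 1, inhibits thrombin and the plasminogen activators at the cell surface. It was at 144, 530, 617 and 415 CPM in the *ApoE*-/- mice and 312, 269, 341 and 239 CPM in the WT mice, so replicate 1 was below all 7 other mice and the other 3 *ApoE*-/- mice were above all WT mice. Over all 8 mice its log2 fold change was 0.56 (SE 0.39, adjusted p = 0.716 by edgeR). Without replicate 1 it was 0.85, and both edgeR (adjusted p = 0.0473) and DESeq2 (adjusted p = 3.936e-04) called it.

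The smooth muscle list was low in the same mouse. Its low *Serpine2*, *Serpinh1*, *Serpinf1* and *Serping1* stood beside smooth muscle markers at 4678 CPM. The fibroblast list (1522 CPM) and the endothelial list (1565 CPM) were also the lowest of the 8 mice there. In *ApoE*-/- mice 1 to 4 the fibroblast list was at 1522, 2760, 2695 and 4144 CPM. *Serpinf1* and *Serping1* were, like this list, highest in replicate 4, while the smooth muscle list was highest in replicate 2 (19232 CPM). The part of cell makeup in these values was not tested. *Plat*, the tissue plasminogen activator, was at 52.0 to 100.6 CPM in *ApoE*-/- aortas and 52.7 to 62.1 CPM in WT aortas, and *Plau*, the urokinase activator, at 17.5 to 34.7 and 17.6 to 27.8 CPM. *Lrp1*, the receptor that clears serpin and protease complexes, was at 1651 to 3582 CPM in *ApoE*-/- aortas and 1806 to 2034 CPM in WT aortas. None of the 3 passed either test over all 8 mice, and edgeR called *Plat* higher without replicate 1.

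*Serping1* (ENSMUSG00000023224.12, chr2:84765387-84775444, minus strand) encodes C1 inhibitor, which blocks the first proteases of the complement and contact pathways, and per kb it was the most abundant serpin in both genotypes (180 ± 60.8 CPM per kb in *ApoE*-/- mice and 149 ± 14.8 in WT mice, SD, n = 4 each). Its level was 253, 456, 378 and 590 CPM in the *ApoE*-/- mice and 321, 397, 328 and 341 CPM in the WT mice. The WT mice lay within the *ApoE*-/- range (log2 fold change 0.27, SE 0.25, adjusted p = 0.789 by edgeR). Without replicate 1 its log2 fold change was 0.45 (adjusted p = 0.198 by edgeR and 0.11 by DESeq2). Its targets *C1ra* (log2 fold change 0.59, SE 0.23) and *C1s1* (0.27, SE 0.19) did not pass either test. *Serpinh1* (ENSMUSG00000070436.12, chr7:99345376-99353239, minus strand), Hsp47, which holds procollagen in its folded form in the endoplasmic reticulum, was at 158, 342, 289 and 321 CPM in the *ApoE*-/- mice and 239, 246, 274 and 220 CPM in the WT mice. Again replicate 1 was the lowest mouse and the other 3 *ApoE*-/- mice were above all WT mice. The log2 fold change was 0.18 (SE 0.23, adjusted p = 0.846 by edgeR), and without that mouse 0.37 (adjusted p = 0.136 by edgeR and 0.0279 by DESeq2). *Serpinf1* (ENSMUSG00000000753.15, chr11:75409769-75422701, minus strand), the anti-angiogenic factor PEDF, was at 92.2, 183, 133 and 219 CPM in the *ApoE*-/- mice and 140, 159, 155 and 149 CPM in the WT mice (log2 fold change 0.05, SE 0.25, and 0.24 without replicate 1). The 4 WT mice lay close together and the *ApoE*-/- mice spread on both sides of them.

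**Figure D3:**
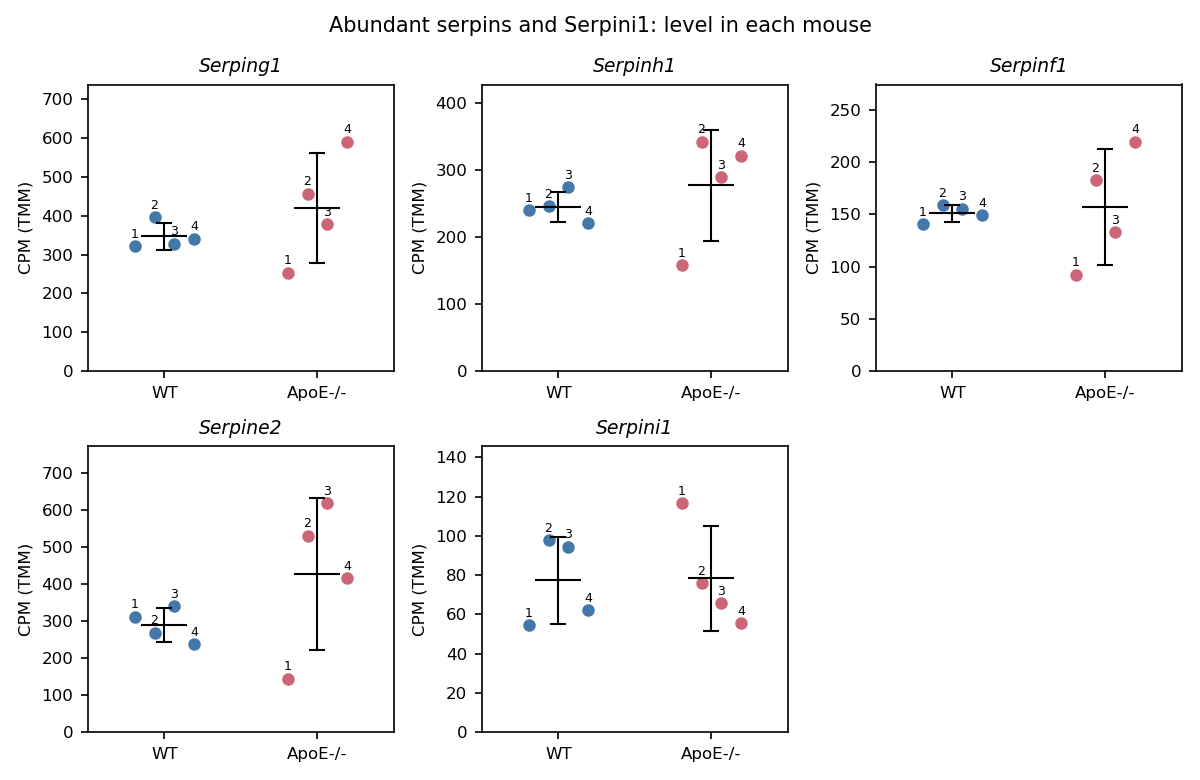
Level in CPM (TMM scaling) of 5 serpins in each of the 4 WT and 4 ApoE-/- mice, with points numbered by replicate, bars at the mean and whiskers of 1 SD. ApoE-/- replicate 1 is the lowest ApoE-/- mouse for Serping1, Serpinh1, Serpinf1 and Serpine2 and the highest mouse for Serpini1.

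The mouse order differed for *Serpini1* (ENSMUSG00000027834.15, chr3:75557547-75643495, plus strand), or neuroserpin, an inhibitor of tissue plasminogen activator made by neurons. It was at 117, 75.8, 65.8 and 55.6 CPM in the *ApoE*-/- mice and 54.5, 97.9, 94.5 and 62.3 CPM in the WT mice (log2 fold change 0.02, SE 0.28, and -0.23 without replicate 1). Its highest value was in *ApoE*-/- replicate 1, the library with the highest sympathetic neuron markers, whose part in this value was not tested. *Serpinc1*, antithrombin, and *Serpind1*, heparin cofactor II, are made mainly in the liver, and both were at low levels. *Serpinc1* was at 1.71 ± 0.35 CPM in *ApoE*-/- and 2.23 ± 0.36 CPM in the WT mice (SD, n = 4 each; log2 fold change -0.39, SE 0.22) and *Serpind1* at 3.43 ± 0.65 and 3.94 ± 0.91 CPM (-0.20, SE 0.24).

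Together the serpins took 0.154% to 0.279% of the counts on genes in *ApoE*-/- mice and 0.152% to 0.202% in WT mice. The lowest *ApoE*-/- value was that of replicate 1, and the other 3 were at 0.256% or above. Without replicate 1, edgeR called 3 serpins higher, *Serpina3i*, *Serpina3n* and *Serpine2* (2.75% of all genes), and 0 lower (1.16%). DESeq2 called 10 higher (5.75%), among them *Serpinb1a*, *Serpinb8*, *Serpine2* and *Serpinh1*, and 1 lower, *Serpina3b* (4.56%). There was then no overlap for 10 serpins that were higher (9.82% of all genes) and for 0 that were lower (7.44%).

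**Figure D4:**
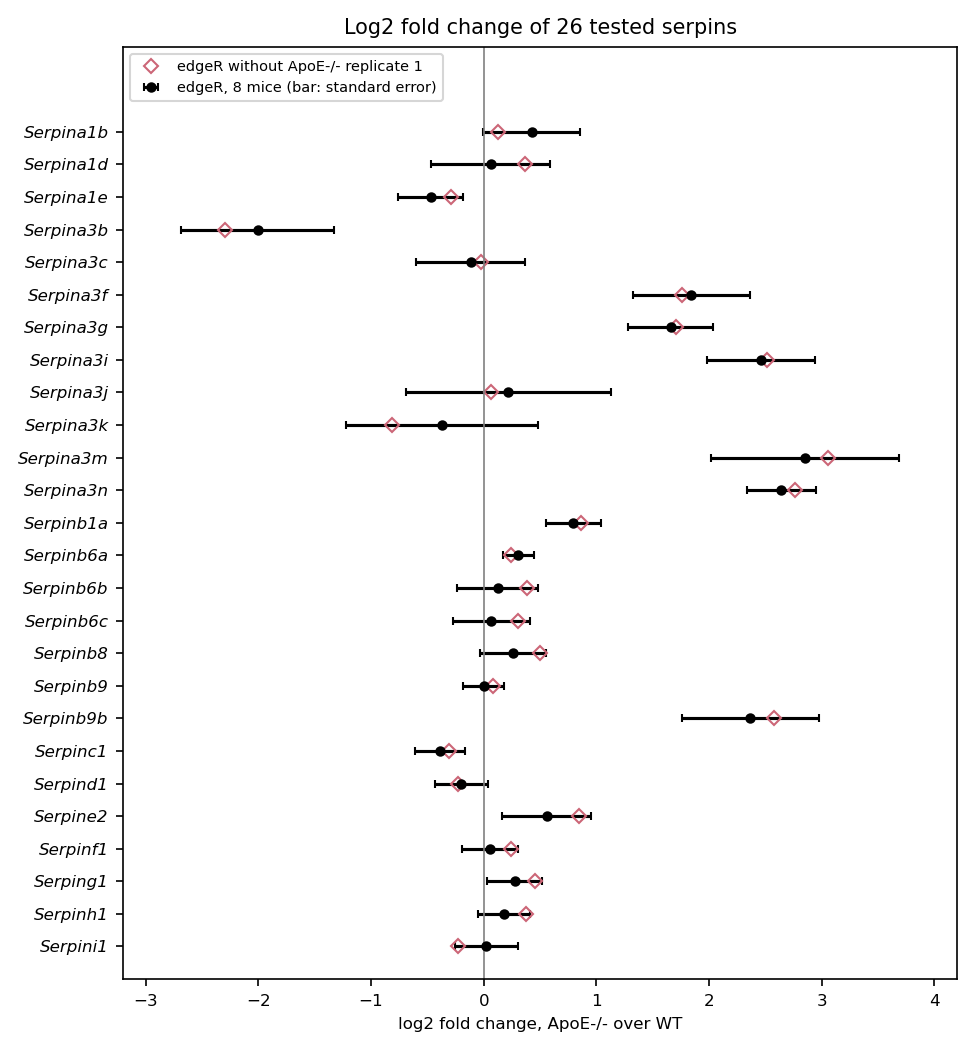
Log2 fold change (ApoE-/- over WT) of 26 tested serpins by edgeR on all 8 mice (filled points, bars of 1 standard error) and without ApoE-/- replicate 1 (open diamonds). Without that mouse Serpine2 moves from 0.56 to 0.85, while Serpina3n stays near 2.7.

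Of the 35 serpins under the filter, *Serpina7* (thyroxine-binding globulin), *Serpinb3a*, *Serpinb6d*, *Serpinb9d*, *Serpinb9f* and *Serpinb9h* had no count in any library. The other 29 were summed over the 4 libraries of each genotype. *Serpinb7* had 48 counts in *ApoE*-/- and 16 in WT mice, and *Serpinb2* 33 and 16. *Serpina12* (vaspin) had 14 and 2, *Serpinb11* 18 and 7, and *Serpinb1b* 21 and 5. For these 5 genes the single library of *ApoE*-/- replicate 1 held the most counts, with 38 of 64 for *Serpinb7*, 24 of 49 for *Serpinb2*, 13 of 16 for *Serpina12*, 14 of 25 for *Serpinb11* and 14 of 26 for *Serpinb1b*. *Serpinf2* (alpha-2-antiplasmin) had 9 counts in *ApoE*-/- and 20 in WT mice. In CPM every *ApoE*-/- mouse was below every WT mouse, as for 3.3% of all tested genes. The counts were only 1, 3, 3 and 2 in the *ApoE*-/- libraries and 5, 5, 7 and 3 in the WT libraries. *Serpina1a* had 15 and 35, and *Serpina1f* 4 and 38.

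Others were split more evenly, with 29 and 24 counts for *Serpina10* (protein Z-dependent inhibitor), 12 and 11 for *Serpina5* (protein C inhibitor), 14 and 21 for *Serpine3*, 7 and 9 for *Serpina1c* and 8 and 14 for *Serpina3a*. *Serpina9* had 17 and 4, *Serpinb1c* 18 and 7, *Serpinb5* (maspin) 9 and 4, *Serpina6* (corticosteroid-binding globulin) 3 and 7, *Serpinb12* 6 and 1, *Serpinb6e* 5 and 2 and *Serpinb3c* 2 and 4. *Serpina11*, *Serpina16*, *Serpinb13*, *Serpinb3b*, *Serpinb3d*, *Serpinb9c*, *Serpinb9e*, *Serpinb9g* and *Serpini2* had 1 to 3 counts in all 8 libraries together. With no filter on low counts edgeR tested 56 of the 62 serpins, and the 1 it called was *Serpina3n*.

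The partners of the serpins were taken from 4 lists. Of 36 proteases that serpins inhibit, 23 were tested; edgeR called 0 (8 were higher and 0 lower at an unadjusted p under 0.05, against 7.19% and 4.17% of all genes), DESeq2 called 5 higher and 0 lower (3.12% and 1.69% of all genes), and the median log2 fold change was 0.52 against 0.05 over all genes. *Ctss*, cathepsin S, was at 45.0 to 323 CPM in *ApoE*-/- aortas and 9.14 to 19.6 CPM in WT aortas (log2 fold change 3.37, SE 0.58, adjusted p = 0.0526 by edgeR and 3.573e-08 by DESeq2). *Ctsl*, cathepsin L, a target of *Serpina3g*, was at 254 to 875 CPM and 201 to 240 CPM (log2 fold change 1.17, SE 0.35, adjusted p = 0.0239 by DESeq2), and *Ctsb* at 1024 to 2122 and 583 to 771 CPM (0.99, SE 0.27, adjusted p = 0.006 by DESeq2). The other 2 that DESeq2 called, *F7* and *F10*, were coagulation factors. Proteases of leukocyte granules were at low levels: *Gzmb* was at 0.09 to 0.87 CPM in *ApoE*-/- aortas and 0 to 0.23 CPM in WT aortas, *Ctsg* at no more than 0.09 CPM in any library, and *Elane* at 0.22 to 1.69 and 0.75 to 1.58 CPM. *Prtn3* was at 0.44 to 1.74 and 0.50 to 1.01 CPM and *Gzma* at 0.13 to 0.49 and 0.05 to 0.10 CPM. The mast cell proteases *Cma1*, at 1.92 to 15.4 and 1.72 to 6.06 CPM, and *Mcpt4*, at 2.05 to 15.5 and 3.04 to 8.49 CPM, overlapped between genotypes.

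Of 18 cofactors and receptors all were tested, edgeR called 0 (4 higher and 0 lower unadjusted) and DESeq2 called 2 higher, *Itgam* and *Anxa2*, beside the same shares of all genes (7.19% higher unadjusted, 3.12% higher by DESeq2). Of 20 collagen and collagen-folding genes, the clients and partners of Hsp47, edgeR called 0 (5 higher and 0 lower unadjusted) and DESeq2 called 3 higher, *Col1a1*, *Col3a1* and *P4ha3* (again against 7.19% and 3.12%). The log2 fold change of *Col3a1* was 1.36 (SE 0.32, adjusted p = 0.107 by edgeR and 5.832e-04 by DESeq2), while that of *Serpinh1* was 0.18. Without *ApoE*-/- replicate 1 that of *Serpinh1* was 0.37 (adjusted p = 0.136 by edgeR and 0.0279 by DESeq2), and edgeR then called *Col3a1* higher. Of 25 genes of the IL-6 type acute phase response, 21 were tested and edgeR called 3 higher and 0 lower (0.371% and 0.0929% of all genes). They were *Il6*, the cytokine itself, at 3.10 to 6.58 CPM in *ApoE*-/- and 0 to 0.28 CPM in the WT mice (log2 fold change 4.87, SE 0.71, adjusted p = 0.0396 by edgeR), *Saa3* (6.32, SE 0.75, adjusted p = 0.0355 by edgeR) and *Lcn2* (2.72, SE 0.39, adjusted p = 0.0381 by edgeR). DESeq2 also called *Il1b* and *Socs3* higher. Without *ApoE*-/- replicate 1, where edgeR called 2.75% of all genes higher and 1.16% lower, it called 5 proteases, 2 cofactors and receptors, 4 collagen genes and 5 acute phase genes higher and 0 lower in any list. DESeq2, at 5.75% higher and 4.56% lower, then called 9, 4, 13 and 8 higher, and 1 of the cofactors and receptors lower.

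Markers of macrophages were higher in *ApoE*-/- mice, as were the serpins without overlap. The 7 macrophage genes summed to 337, 765, 1078 and 2020 CPM in *ApoE*-/- mice 1 to 4 and to 184 to 268 CPM in the WT mice, and 7 of 7 were higher in every *ApoE*-/- mouse than in every WT mouse (5.41% of all genes). In *ApoE*-/- replicate 1 the macrophage sum was the lowest of its genotype, at 337 CPM, while *Serpina3n* was at 193 CPM there, above the 186 CPM of replicate 2. In replicate 4 the macrophage sum and *Serpina3n*, *Serpina3g*, *Serpina3m* and *Serpinb1a* were all at their highest, while *Serpina3i* and *Serpinb9b* were highest in replicate 3. Across *ApoE*-/- mice 1 to 4 *Serpinb1a* rose in the order of the macrophage sums, while *Serpina3n*, *Serpina3g*, *Serpina3i*, *Serpina3m* and *Serpinb9b* did not. The neutrophil list (6 genes) summed to 2.41 to 9.64 CPM in *ApoE*-/- aortas and 0.86 to 1.22 CPM in WT aortas, and its *Ly6g* was at 0 in some libraries. The T cell list (5 genes) summed to 3.59 to 8.42 and 1.88 to 4.26 CPM. The B cell list (4 genes) summed to 11.4, 5.42, 13.9 and 5.21 CPM in *ApoE*-/- mice 1 to 4 and 3.03 to 5.22 CPM in the WT mice, highest in replicate 3 as *Serpina3i* and *Serpinb9b* were. The genotypes overlapped for both sums. The endothelial list (6 genes) summed to 1565 to 2352 and 2267 to 2738 CPM, with 3 of 6 lower in every *ApoE*-/- mouse (3.3% of all genes), and the fibroblast list (5 genes) to 1522 to 4144 and 1702 to 2132 CPM. The cardiac muscle list (6 genes) summed to 154 to 336 CPM in *ApoE*-/- aortas and 381 to 611 CPM in WT aortas, without overlap, and 5 of 6 were lower in every *ApoE*-/- mouse. Which of these cells held the serpin RNA was not tested.

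**Figure D5:**
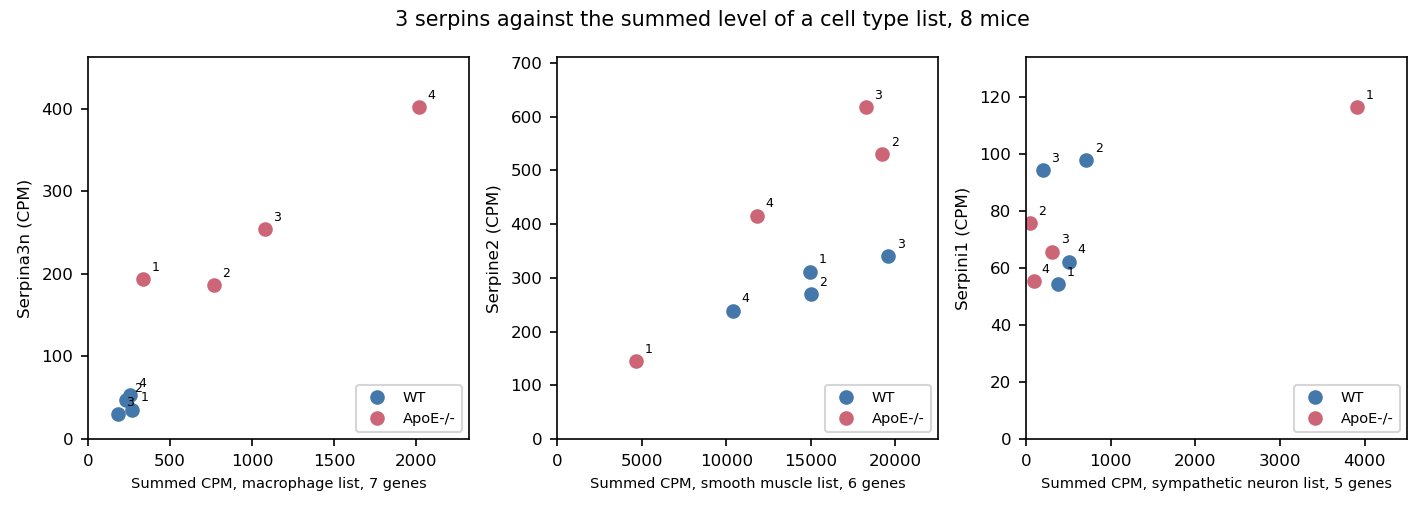
Level in CPM of Serpina3n, Serpine2 and Serpini1 against the summed CPM of the macrophage, smooth muscle and sympathetic neuron lists in the 8 mice, numbered by replicate. Serpina3n is above all WT mice in ApoE-/- replicate 1, where the macrophage list is at 337 CPM, Serpine2 is lowest where the smooth muscle list is at 4678 CPM, and Serpini1 is highest where the neuron list is at 3911 CPM.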

How the data were processed

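RNA was measured in whole aortas of 4 ApoE-/- and 4 WT mice, grouped by the genotype in the labels, with 1 library per mouse. The authors depleted ribosomal RNA, kept strand and deposited unnormalized counts, the number of pairs on each gene. The submitters' processing notes name TopHat2, HTSeq, GRCm38 and mm10, and their versions were not given in the sources used here. Pairs without a single gene, 64.4% to 67.7% of the rows' sum in ApoE-/- and 69.8% to 72.1% in WT libraries, were left out. Gene identifiers were matched without their version suffix to GENCODE M21 (GRCm38), which held 21817 of 21859 and all 62 serpins. A 50-base window shared between genes may split or lose pairs.

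The counts were analysed in R 4.3.3 with edgeR 4.0.16 (filterByExpr, TMM, quasi-likelihood F test with robust estimation, genotype as the only factor), which tested 15077 genes. P-values are two-sided and Benjamini-Hochberg adjusted over these genes, with a threshold of 0.05. The alternatives were DESeq2 1.42.0, limma-voom (limma 3.58.1), other scaling factors, other filters, a fit with no robust step, a block for replicate number, and fits on 7 of the 8 mice. DESeq2 on 7 mice and the partner lists without 1 mouse were added after seeing the data. The code was tested on simulated counts. Promoters were taken from RefSeq (GRCm38.p6), which matched 53 serpins, 22 of them tested.

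The serpins, partner lists and marker lists were chosen with earlier results of these data known. Every tested serpin was named except 1 that is not reported here. Values in all mice were given for those with an adjusted p under 0.05 in either tool, an unadjusted edgeR p under 0.05, no overlap, or one of the 5 highest levels per length, with the same exception. Untested serpins with a count were named with their sums. From the partner lists, genes called by edgeR and the best known partners were named. The other genes named from these lists were chosen after their values were seen. Counts limit the precision at low levels.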

Additional observations from a re-analysis of the deposited data

Results flagged for a closer look

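In each genotype the 4 values of each tested serpin were examined for a mouse far from the other 3 (Dixon's ratio of the gap to the whole range, over 54 groups). The ratio passed its critical value in 3 groups, where chance gives about 2.7. *Serpina3m* was highest in *ApoE*-/- replicate 4, with a ratio of 0.935 (15.6 CPM against 2.70 to 3.54 CPM in the other 3). *Serpinb1a* was highest in the same mouse, with a ratio of 0.897 (9.72 CPM against 6.17 to 6.53 CPM). *Serpina3i* was highest in WT replicate 3, with a ratio of 0.842 (0.55 CPM against 0.23 to 0.28 CPM).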

How the results depend on the processing

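Over all genes, edgeR called 70 (56 higher and 14 lower in *ApoE*-/- mice), DESeq2 725 (470 and 255), limma-voom 29 (21 and 8), and a filter of at least 10 counts in every library left 50 (41 and 9). DESeq2 called 5 serpins higher. With each mouse left out in turn, edgeR called 0 to 593 genes (0 to 417 higher, 0 to 176 lower) and 0 to 3 serpins higher, and DESeq2 445 to 1562 genes (291 to 871 higher, 141 to 691 lower), with 3 to 10 serpins higher and 0 to 1 lower. The causes of these differences were not tested. With the replicate number taken as a block, edgeR called 2 genes (1 higher, 1 lower) and 0 serpins. The labels pair no mice. For mice of the same number the deviations from the genotype mean correlated at 0.06, -0.45, 0.32 and 0.16. These few values cannot tell whether mice of one number shared a batch.

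Of 489 settings of single serpins, which include DESeq2 on 7 mice for 8 serpins only, 410 kept direction and side of the threshold, 7 lost and 35 gained a call, and 37 changed direction, all in 9 serpins with a log2 fold change of at most 0.37 in size and no call. For the other 19, DESeq2 on 7 mice gave 152 values, of which 4 gained a call, all without *ApoE*-/- replicate 1, and 23 changed direction with no call. limma-voom gave -0.0097 for *Serpina1d*, -0.635 for *Serpina3j*, 0.0492 for *Serpina3k*, -0.016 for *Serpinb6b*, -0.0528 for *Serpinb6c* and -0.0147 for *Serpinf1*. The block gave -0.0925 for *Serpina3j*, -0.0127 for *Serpinb6b*, -0.0265 for *Serpinb6c*, -0.0182 for *Serpinf1* and -0.0005 for *Serpini1*. *Serpinb9* was at -0.0079 with DESeq2 and with its size factors, -0.0333 with upper-quartile factors and -0.0019 without a filter, and *Serpini1* at -0.024 with upper-quartile factors. Leaving out each mouse gave -0.19 to 0.46 for *Serpina1d*, -0.80 to 0.15 for *Serpina3c*, -0.54 to 0.63 for *Serpina3j*, -0.81 to 0.52 for *Serpina3k*, -0.0861 to 0.38 for *Serpinb6b*, -0.20 to 0.31 for *Serpinb6c*, -0.11 to 0.16 for *Serpinb9*, -0.15 to 0.24 for *Serpinf1* and -0.23 to 0.15 for *Serpini1*. Low counts limit *Serpina3f*, *Serpina3i*, *Serpina3j* and *Serpinb9b*, and the 35 untested serpins.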
